A study of Mus musculus with 10 samples.

Results

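The genes described are 50 of the 55291 genes in a count table from sorted mouse regulatory T (Treg) cells. They were chosen by symbol: 18 cathepsins, 24 genes of the vacuolar proton pump (13 of its V1 sector, 9 of its V0 sector and the 2 accessory genes Atp6ap1 and Atp6ap2), the membrane glycoproteins Lamp1 and Lamp2, and the transcription factors Tfeb, Tfe3 and Mitf. The same symbol patterns also took in 3 genes that are no pump subunits, namely the pseudogenes Atp6v0c-ps1 and Atp6v0c-ps2 and Atp6v1fnb, a gene named for lying next to Atp6v1f. Of the 50 genes, 41 had enough reads to be tested and 9 did not. The name "lysosomal" holds for most of them. Among the exceptions, Ctsj, Ctsm, Ctsq and Ctsr, which are placental cathepsins of rodents, had no read in any library, and Ctsg, a serine protease of neutrophil granules, had at most 9.

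Cathepsins are proteases that are made as inactive precursors, carried to endosomes and lysosomes, and activated in their acidic interior. The acid comes from the vacuolar ATPase, whose cytosolic V1 sector burns ATP and whose membrane-bound V0 sector passes protons. LAMP proteins coat the lysosomal membrane from inside. TFEB, TFE3 and MITF belong to the MiT/TFE family, which binds the E-box CACGTG and drives many lysosomal genes. T cells use cathepsins for protein turnover, while macrophages and dendritic cells hold large amounts of them for breaking down engulfed material and processing antigen.

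Treg cells came from 3 sources, all in Foxp3YFP-cre mice, which carry a fluorescent reporter joined to Cre recombinase under the control of Foxp3. The Hepa1-6 libraries (n = 4) are Treg cells from tumours of a mouse hepatoma line placed under the skin, taken on day 23. The E.G7 libraries (n = 2) are Treg cells from subcutaneous tumours of a mouse lymphoma line, taken on day 21. The LN libraries (n = 4) are Treg cells from the lymph nodes of mice without a tumour, so tumour and tissue of origin change together and the tumour types also differ in the day of sampling. The labels give a cell sorter and CD4+ T cells as its input, but no age or sex of the mice and no marker of the gate. They do not say that libraries of a group are separate animals, and the p-values below rest on the spread among the libraries, part or all of which may be technical.

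Libraries held 26224286 to 26665325 counted reads in Hepa1-6, 26585350 and 26663336 in E.G7, and 22665563 to 24472849 in LN. Levels are CPM, read counts scaled to library size with TMM factors. A gene is called where its edgeR quasi-likelihood test over all 20068 genes tested gave a Benjamini-Hochberg adjusted p under 0.05. Foxp3, which defines Treg cells, averaged 82.02 ± 11 CPM in Hepa1-6 (SD, n = 4), 50.2 ± 4.34 in E.G7 (SD, n = 2) and 108 ± 10.8 in LN (SD, n = 4). Markers of macrophages, dendritic cells, neutrophils and CD8 T and NK cells summed to higher levels in both tumours than in LN, and in bulk RNA more cells of a type and more RNA per cell cannot be told apart. Of 16 macrophage markers, 16 rose in Hepa1-6 against LN and 15 rose in E.G7 against LN. Their summed level was 4051 to 4358 CPM in Hepa1-6, 736.5 and 763 in E.G7, and 21.6 to 34.6 CPM in LN. C1qa, a complement gene of macrophages, averaged 224 CPM in Hepa1-6, 19.4 in E.G7 and 0.835 in LN. Csf1r, the receptor for macrophage colony-stimulating factor, averaged 429.5 CPM in Hepa1-6, 40.3 in E.G7 and 2.04 in LN, and Adgre1, which encodes F4/80, averaged 74.2 CPM in Hepa1-6, 13.1 in E.G7 and 0.203 in LN. The median log2 fold change of the macrophage markers was 8.52 in Hepa1-6 against LN, 5.08 in E.G7 against LN and 3.45 in Hepa1-6 against E.G7.

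Summed levels of 11 dendritic cell and MHC class II genes were 9531 to 9913 CPM in Hepa1-6, 1764 and 1822 in E.G7, and 161 to 180.4 CPM in LN. All 11 were higher in each tumour than in LN, with median log2 fold changes of 7.68 for Hepa1-6 and 5.61 for E.G7. Those of 8 neutrophil genes were 38.2 to 46.1 CPM in Hepa1-6, 6.66 and 6.84 in E.G7, and 0 to 1.01 CPM in LN. S100a9, Ly6g and Retnlg had 0 counts in LN, and with these at their lower bounds the median over 7 genes was 5.82 for Hepa1-6. For E.G7, where Ly6g had too few reads for a bound and was left out, the median over 6 genes was 3.896. Those of 9 CD8 T and NK cell genes were 1144 to 1231 CPM in Hepa1-6, 393 and 404 in E.G7, and 64.9 to 76.4 CPM in LN. With Ncr1 at its bound the medians were 4.03 and 2.16. Hepatoma genes summed to 2657 to 2699 CPM in Hepa1-6, 117 and 122 in E.G7, and 7.79 to 10.1 CPM in LN (medians 10.2 and 2.36). Stromal and endothelial genes summed to 1116 to 1207 CPM in Hepa1-6, 137 and 165.5 in E.G7, and 223 to 240.2 CPM in LN. With Col3a1 and Dcn at their bounds the medians were 5.87 and 3.57. B cell genes ran the other way in sum, with 375 to 447 CPM in Hepa1-6, 634 and 639.7 in E.G7, and 836 to 952 CPM in LN (medians 0.45 and 1.11). The 2 tested thymocyte genes had medians of -0.19 and 1.71, and the list summed to 54.6 to 61.1 CPM in Hepa1-6, 86.0 and 101 in E.G7, and 87.2 to 92.9 CPM in LN. The 11 pan T cell genes summed to 5534 to 5688 CPM in Hepa1-6, 5584 and 5659 in E.G7, and 6868 to 7349 CPM in LN (medians -0.27 and -0.37). The 6 Treg genes summed to 3477 to 3624 CPM in Hepa1-6, 2658 and 2733 in E.G7, and 2283 to 2492 CPM in LN (medians -0.092 and -0.72). The part that RNA of other cells has in the differences below was not tested.

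Promoter sequences are shown because some of them hold an E-box, which the symbol rule did not use. RefSeq promoters (GRCm38.p6) were found for 38 of the 50 genes and for 30 of the 41 tested. The letters CACGTG, which read the same on both strands, stood in 9 of the 30 (30%) and in 9 of the 38 (23.7%). Of all 27025 genes with a promoter in the same table, tested or not, 8.09% held them. These letters stood in 4 of 9 tested cathepsins and in 4 of 15 tested pump genes. The 7-letter motif TCACGTG, read on either strand and always overlapping a CACGTG, stood in 7 of the 30 (23.3%) and in 7 of the 38 (18.4%), against 4.29% of all genes. It is the core of the element through which MiT/TFE factors are known to act on lysosomal genes. The windows searched run from 250 bases before the start to 50 after it. Matches of this kind are a description of letters and not of binding. The sequences run from 250 bases before the start to 20 after it. Of the 7 windows with the 7-letter motif, 6 are printed (that of Atp6v0e is not), namely those of Lamp1 (chr8:13158911-13159180, plus strand), Ctsd (chr7:142387808-142388077, minus strand), Ctsa (its second listed start, chr2:164833523-164833792, plus strand), Atp6v0b (chr4:117887310-117887579, minus strand), Atp6v0d1 (chr8:105566045-105566314, minus strand) and Atp6v1a (chr16:44139240-44139509, minus strand). Ctsc (chr7:88277835-88278104, plus strand) and Ctsz (chr2:174439020-174439289, minus strand), which have no match in this window, stand after them for comparison. Capitals mark CACGTG, and each line reads 5′ to 3′ towards the gene.
Lamp1: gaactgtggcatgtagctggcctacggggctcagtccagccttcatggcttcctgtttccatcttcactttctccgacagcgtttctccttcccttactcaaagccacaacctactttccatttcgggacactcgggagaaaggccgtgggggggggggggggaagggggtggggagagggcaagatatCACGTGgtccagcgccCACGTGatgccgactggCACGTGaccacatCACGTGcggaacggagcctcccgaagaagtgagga
Ctsd: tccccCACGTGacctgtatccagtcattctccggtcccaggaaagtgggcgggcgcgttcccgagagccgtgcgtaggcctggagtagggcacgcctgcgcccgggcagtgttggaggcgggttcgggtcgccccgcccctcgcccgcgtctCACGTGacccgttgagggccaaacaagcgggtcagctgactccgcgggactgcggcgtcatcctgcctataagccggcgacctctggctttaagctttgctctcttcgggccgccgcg
Ctsa: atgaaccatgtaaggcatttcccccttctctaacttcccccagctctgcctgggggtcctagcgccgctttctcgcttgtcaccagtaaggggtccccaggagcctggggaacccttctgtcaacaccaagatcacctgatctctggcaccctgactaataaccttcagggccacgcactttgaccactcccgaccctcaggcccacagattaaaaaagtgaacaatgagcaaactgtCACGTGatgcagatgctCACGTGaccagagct
Atp6v0b: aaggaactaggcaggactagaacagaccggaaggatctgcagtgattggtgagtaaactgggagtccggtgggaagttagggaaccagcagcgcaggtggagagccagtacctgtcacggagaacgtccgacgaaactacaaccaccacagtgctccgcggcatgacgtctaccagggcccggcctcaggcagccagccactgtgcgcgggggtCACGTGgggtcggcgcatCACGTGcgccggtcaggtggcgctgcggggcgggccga
Atp6v0d1: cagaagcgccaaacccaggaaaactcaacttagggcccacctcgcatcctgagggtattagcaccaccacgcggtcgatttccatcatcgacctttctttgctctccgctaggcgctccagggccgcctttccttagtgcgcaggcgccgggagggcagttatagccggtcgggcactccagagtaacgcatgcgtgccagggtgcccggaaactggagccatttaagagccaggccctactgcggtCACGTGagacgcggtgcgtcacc
Atp6v1a: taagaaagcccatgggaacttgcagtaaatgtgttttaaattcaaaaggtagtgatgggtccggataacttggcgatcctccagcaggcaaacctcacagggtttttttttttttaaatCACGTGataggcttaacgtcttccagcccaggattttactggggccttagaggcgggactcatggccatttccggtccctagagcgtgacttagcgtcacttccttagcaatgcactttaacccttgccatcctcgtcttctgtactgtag
Ctsc: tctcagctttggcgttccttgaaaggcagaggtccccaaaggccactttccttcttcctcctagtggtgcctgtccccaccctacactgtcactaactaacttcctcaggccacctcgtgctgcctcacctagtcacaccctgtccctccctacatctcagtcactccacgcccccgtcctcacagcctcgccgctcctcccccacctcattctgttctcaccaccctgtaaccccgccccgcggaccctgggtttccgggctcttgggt
Ctsz: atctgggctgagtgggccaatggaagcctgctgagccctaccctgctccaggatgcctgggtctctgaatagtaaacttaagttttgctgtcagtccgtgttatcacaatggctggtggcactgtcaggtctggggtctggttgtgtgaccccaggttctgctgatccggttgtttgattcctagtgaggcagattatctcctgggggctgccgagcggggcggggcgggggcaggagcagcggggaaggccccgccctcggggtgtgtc

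Lamp1 carried 4 copies within the last 61 bases before its start, at -61, -45, -28 and -15, counting the base before the start as -1. Ctsd had a copy at -245 and another at -98, Ctsa at -12 and 6, and Atp6v0b at -36 and -18. Atp6v0d1, Atp6v0e and Atp6v1a had 1 copy each, at -3, 4 and -131. Ctsf (-79) and Ctsl (-236) had the 6 letters without the flanking T. The 7 genes with the 7-letter motif were all called higher in Hepa1-6 than in LN, with log2 fold changes of 0.45 to 1.89. They were also all called higher in E.G7 than in LN, with 0.15 to 1.58, where the calls for Ctsa and Lamp1 did not hold in several settings, leaving out single libraries among them. Of the 23 tested genes whose promoters lacked it, 17 were higher and 2 lower in Hepa1-6 than in LN, and 12 were higher and 5 lower in E.G7 than in LN. In Hepa1-6 against E.G7, 5 of the 7 were higher and 2 did not pass, and of the 23, 16 were higher, 1 was lower and 6 did not pass. Over all tested genes 37.0% were called higher in Hepa1-6 against LN, 32.7% in E.G7 against LN and 26.1% in Hepa1-6 against E.G7. Leaving aside Atp6v0a4, the largest rises in Hepa1-6 against LN were those of Ctsh, Ctsl and Atp6v0d2, of which Ctsl has the 6 letters alone and the others have no promoter in the table.

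In Hepa1-6 libraries the lysosomal genes were higher than in LN libraries almost throughout. Of the 41 genes tested, 33 rose, 3 fell (Ctse, Ctso and Atp6v1d) and 5 did not pass the test, against 37.0% of all tested genes called higher and 31.1% called lower. The median log2 fold change over the 41 was 1.17, beside 0.039 over all tested genes. In E.G7 libraries 25 of the 41 rose against LN, 7 fell and 9 did not pass, against backgrounds of 32.7% higher and 27.2% lower. The median of the 40 with reads in either group was 0.53, beside 0.013 over all tested genes. Between the tumours, 27 of 41 were higher in Hepa1-6 than in E.G7, 2 were lower (Ctse and Atp6v1g3) and 12 did not pass. The backgrounds were 26.1% and 19.6% of all genes, and the median was 0.79 (0.061 over all tested genes). The 33 and the 27 include Atp6v0a4, which had reads in Hepa1-6 alone and so could only be called higher there. The Hepa1-6 and E.G7 comparisons with LN share the 4 LN libraries. Scaled to pan T cell genes, the E.G7 split against LN was 29 higher and 3 lower. Over all genes, the share of calls that were higher then came to 72.8% in Hepa1-6 against LN (54.3% with TMM) and to 72.3% in E.G7 against LN (54.6% with TMM).

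The cathepsins ranged from a log2 fold change of -1.79 (Ctse) to 8.31 (Ctsh) in Hepa1-6 against LN. All 13 tested cathepsins were called in Hepa1-6 against LN, 11 higher and 2 lower. Their summed level was 6826 to 7339 CPM in Hepa1-6, 2630 and 2698 in E.G7, and 2027 to 2279 CPM in LN. In E.G7 against LN, 8 were higher and 5 lower. Between Hepa1-6 and E.G7, 11 were higher in Hepa1-6, Ctse was lower and Ctsk did not pass. Over all tested genes, 37.0% were called higher and 31.1% lower in Hepa1-6 against LN. These shares were 32.7% and 27.2% in E.G7 against LN, and 26.1% and 19.6% in Hepa1-6 against E.G7.

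Ctsb encodes cathepsin B, a cysteine protease that cuts both within and at the end of peptides. It had 2103, 2102, 2258 and 2172 CPM in Hepa1-6, 822 and 787 in E.G7 and 400.2, 433, 364 and 431 in LN. Every Hepa1-6 library lay above both E.G7 libraries, which lay above every LN library. The rise was 5.302-fold in Hepa1-6 against LN (log2 fold change 2.41 ± 0.056 (SE), adjusted p = 2.9e-15). It was 1.98-fold in E.G7 against LN (log2 fold change 0.98 ± 0.063 (SE), adjusted p = 1.92e-09) and 2.68-fold in Hepa1-6 against E.G7 (log2 fold change 1.42 ± 0.069 (SE), adjusted p = 1.45e-10). Ctsl, for cathepsin L, an endopeptidase of the same fold, had 265, 246, 278 and 288 CPM in Hepa1-6, 49.8 and 53.2 in E.G7 and 7.91, 8.79, 9.52 and 10.1 in LN. The groups did not overlap, and the level was 29.7-fold that of LN in Hepa1-6 (log2 fold change 4.89 ± 0.083 (SE), adjusted p = 7.75e-17) and 5.67-fold in E.G7 (log2 fold change 2.50 ± 0.089 (SE), adjusted p = 1.67e-12). Ctsh, for the aminopeptidase cathepsin H, was close to absent in LN, with 279, 258, 260.3 and 289 CPM in Hepa1-6, 36 and 37.9 in E.G7 and 0.316, 1.35, 0.643 and 1.09 in LN. It showed the largest fold of any tested member with reads in all groups, 316-fold in Hepa1-6 (log2 fold change 8.31 ± 0.19 (SE), adjusted p = 3.03e-13) and 43.1-fold in E.G7 (log2 fold change 5.43 ± 0.20 (SE), adjusted p = 1.37e-10) against LN. The macrophage markers had median folds of 366.7 and 33.9 in these comparisons. Ctsh was the one tested member above the macrophage median in E.G7 against LN, and none of the 40 members compared was above it in Hepa1-6 against LN.

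Ctsz encodes cathepsin Z, a carboxypeptidase, and had 647, 674, 702 and 710.2 CPM in Hepa1-6, 366 and 372 in E.G7 and 74.3, 91.6, 78.3 and 90.7 in LN. Its order was Hepa1-6 above E.G7 above LN in every library, with log2 fold change 3.03 ± 0.069 (SE), adjusted p = 2.15e-15 in Hepa1-6 against LN and log2 fold change 2.14 ± 0.075 (SE), adjusted p = 1.42e-12 in E.G7 against LN. Among the 11 cathepsins higher in Hepa1-6 than in E.G7, Ctso and Ctsz differed least, by 0.41 and 0.89 (adjusted p = 0.000263 and 1.9e-07). Ctsd, the aspartic protease cathepsin D, had 676, 688, 710.4 and 690.4 CPM in Hepa1-6, 284 and 279 in E.G7 and 179, 202, 165 and 199.5 in LN. Again the groups did not overlap (log2 fold change 1.89 ± 0.061 (SE), adjusted p = 1.57e-13 in Hepa1-6 and log2 fold change 0.59 ± 0.071 (SE), adjusted p = 2.67e-06 in E.G7, both against LN). Ctsc, for the dipeptidyl peptidase that activates granzymes, was far higher in Hepa1-6 than in either other group. It had 769, 799, 840.4 and 876 CPM in Hepa1-6, 167 and 154 in E.G7 and 121, 133, 128 and 129.6 in LN. Its log2 fold change was 2.68 in Hepa1-6 and 0.33 in E.G7 against LN, and 2.35 between the tumours (adjusted p = 6.46e-16, 0.000338 and 7.46e-13). Ctsa, for the serine carboxypeptidase that also protects other lysosomal enzymes, had 561, 518, 563 and 580.1 CPM in Hepa1-6, 196 and 192 in E.G7 and 169, 175, 169 and 185 in LN. It rose 3.19-fold in Hepa1-6 (adjusted p = 6.67e-14), while the difference of 0.15 log2 units between E.G7 and LN (adjusted p = 0.0367) was lost without either E.G7 library or without LN replicate 1, 2 or 3 (0.13 to 0.17, adjusted p of 0.0592 to 0.138). Exons of Ctsa overlap Neurl2 and Pltp, those of Ctsb overlap Fdft1, those of Ctsz overlap Nelfcd those of Ctsw overlap Fibp and those of Ctsl overlap Gm47123, each on the other strand. Exons of Ctsd overlap Gm49369 and those of Ctsl also overlap Gm49230, on the same strand. The counting is not stated to use strand, so the levels of these genes are uncertain.

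**Figure D1:**
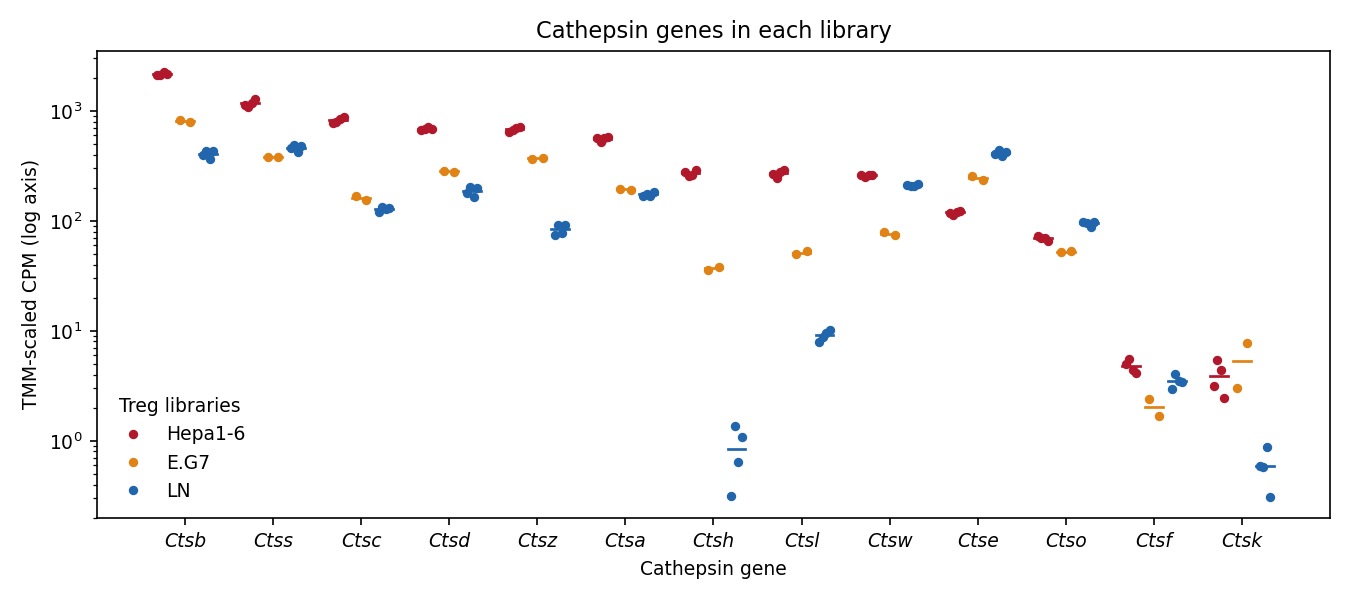
Level of each of the 13 tested cathepsin genes in TMM-scaled CPM on a log axis, with 1 point per library and a bar at the group mean, for Hepa1-6 (n = 4), E.G7 (n = 2) and LN (n = 4). Ctsh and Ctsl show the widest separation, with Ctsh between 258 and 289 CPM in Hepa1-6 and at most 1.35 CPM in LN, while Ctse runs in the opposite order.

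A smaller number of cathepsins did not follow this order. Ctss encodes cathepsin S, which trims the MHC class II invariant chain in antigen-presenting cells. It had 1138, 1094, 1183 and 1278 CPM in Hepa1-6, 383 and 381 in E.G7 and 458, 489.6, 425 and 479 in LN. It was 2.53-fold higher in Hepa1-6 than in LN (log2 fold change 1.34 ± 0.056 (SE), adjusted p = 3.84e-12) but lower in E.G7 than in LN (log2 fold change -0.28 ± 0.068 (SE), adjusted p = 0.00235), a direction that turned to 0.068 (adjusted p = 0.353) after scaling to pan T cell genes. Ctsw, for cathepsin W, a protease known from cytotoxic T and NK cells, had 263, 252, 261 and 259.6 CPM in Hepa1-6, 79.3 and 73.7 in E.G7 and 210.1, 206, 207 and 218 in LN. Both E.G7 libraries lay far below all others, at a level 2.75-fold below LN (log2 fold change -1.46 ± 0.061 (SE), adjusted p = 1.1e-11). Hepa1-6 lay slightly above LN (log2 fold change 0.30 ± 0.046 (SE), adjusted p = 3.04e-05). Summed CD8 T and NK cell genes were higher in both tumours than in LN, as given above, and their part in the levels of Ctsw was not tested.

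Ctse, for the endosomal aspartic protease cathepsin E, ran opposite to the family with 119, 113, 121 and 124 CPM in Hepa1-6, 256 and 237 in E.G7 and 406, 437, 388 and 418 in LN. The level in Hepa1-6 was 3.45-fold below LN (log2 fold change -1.79 ± 0.053 (SE), adjusted p = 5.71e-14) and the level in E.G7 1.67-fold below it (log2 fold change -0.74 ± 0.065 (SE), adjusted p = 7.45e-08), and Hepa1-6 was also below E.G7 (log2 fold change -1.05 ± 0.061 (SE), adjusted p = 1.23e-09). The summed B cell genes had the same order of groups, but the single genes of that list went both ways. Their log2 fold changes against LN ran from -1.20 to 4.08 in Hepa1-6 (median 0.45). In E.G7 they ran from -0.80 to 4.71 (median 1.11). The part of B cell RNA in the fall of Ctse was not tested. Ctso, a cysteine cathepsin of broad expression, had 72.7, 70.2, 69.2 and 65.4 CPM in Hepa1-6, 51.6 and 52.9 in E.G7 and 97.5, 96.3, 88.6 and 96.99 in LN. It was lower in both tumours than in LN, with a log2 fold change of -0.45 in Hepa1-6 (adjusted p = 4.85e-06) and of -0.86 in E.G7 (adjusted p = 6.99e-08), the first of which fell short of the threshold after scaling to pan T cell genes (-0.10, adjusted p = 0.125).

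The remaining cathepsins were low. Ctsf, for cathepsin F, averaged 4.75 ± 0.6195 CPM in Hepa1-6 (SD, n = 4), 2.04 ± 0.484 in E.G7 (SD, n = 2) and 3.501 ± 0.459 in LN (SD, n = 4), and its rise in Hepa1-6 (0.44, adjusted p = 0.0486) did not pass without Hepa1-6 replicate 1, 2 or 3 or without LN replicate 1, 3 or 4 (0.36 to 0.48, adjusted p of 0.055 to 0.136). Its fall in E.G7, at -0.78 (adjusted p = 0.0119), did not pass without E.G7 replicate 2 (-0.55, adjusted p = 0.161). Ctsk, for cathepsin K, the collagen-degrading protease of osteoclasts, had 3.15, 5.46, 4.37 and 2.43 CPM in Hepa1-6, 3.01 and 7.69 in E.G7 and 0.593, 0.578, 0.884 and 0.311 in LN. It was higher than LN in both tumours (log2 fold change 2.70 ± 0.38 (SE), adjusted p = 1.65e-05 in Hepa1-6 and log2 fold change 3.17 ± 0.42 (SE), adjusted p = 1.15e-05 in E.G7). The E.G7 libraries had 3.01 and 7.69 CPM, an SD of 61.9% of their mean, the highest such percentage among the 13 tested cathepsins in E.G7, and without E.G7 replicate 2 the log2 fold change in E.G7 was 2.35 (adjusted p = 0.000779). Ctsg reached 9 reads in its highest library and 25 in all, too few for a test.

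Levels were divided by the deposited gene lengths to set cathepsins side by side. Those lengths may differ from the lengths of the transcripts present, so ranks and shares between genes depend on them. Per kb, Ctss was the highest of the family in each group, at 864, 281 and 341 in Hepa1-6, E.G7 and LN. By CPM, Ctsb was above Ctss in Hepa1-6 (2159 and 1173) and E.G7 (805 and 382), and below it in LN (407 and 463). Ctss made up 34.0% of the summed cathepsin level per kb in Hepa1-6, 27.9% in E.G7 and 39.3% in LN. The next in the tumours was Ctsz, with 18.7% in Hepa1-6 and 25.4% in E.G7, against 6.69% in LN. Ctse made up 1.48% in Hepa1-6 and 7.72% in E.G7, against 15% in LN, where it was the next after Ctss. Ctsb made up 14.04% in Hepa1-6, 13.2% in E.G7 and 7.75% in LN, and Ctsd 11.6% in Hepa1-6, 11.9% in E.G7 and 9.13% in LN. Ctsw made up 5.40% in Hepa1-6, 4.02% in E.G7 and 12.9% in LN. Between Hepa1-6 and E.G7 the shares of Ctsb and Ctsd were thus nearer to each other than those of Ctsz and Ctse. The shares of Ctsz, Ctsb, Ctsd and Ctsw carry the doubt about overlapping exons given above. Shares of 1 total move together, so a fall in one share does not by itself show a fall in the level.

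**Figure D2:**
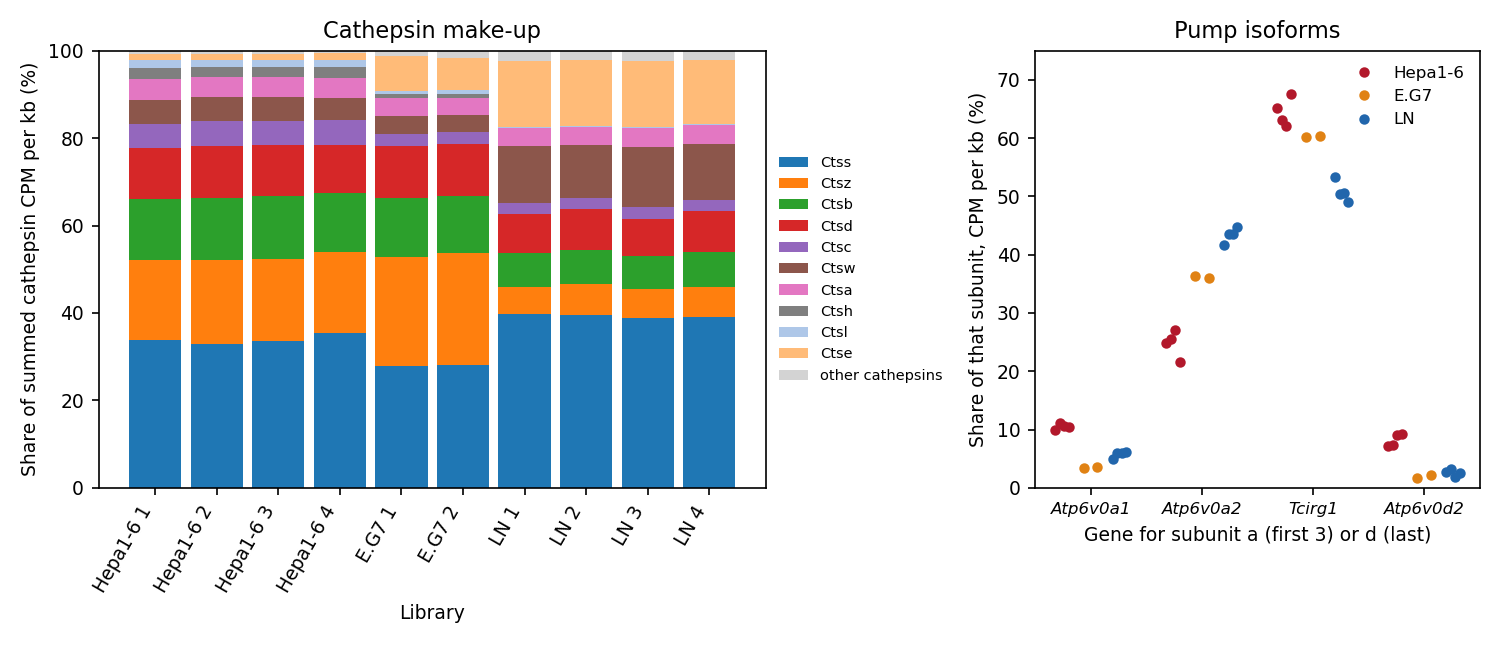
Left, share (%) of each cathepsin in the summed cathepsin CPM per kb of each library. Right, share (%) of Atp6v0a1, Atp6v0a2 and Tcirg1 in the summed level per kb of the genes for subunit a, and of Atp6v0d2 in that for subunit d, with 1 point per library of Hepa1-6 (n = 4), E.G7 (n = 2) and LN (n = 4). Ctse takes 1.48% in Hepa1-6 and 15% in LN, and Atp6v0d2 takes 8.19% in Hepa1-6 against 1.97% in E.G7 and 2.57% in LN.

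Most of the tested proton pump genes were higher in the tumours than in LN. Of the 21, 16 were higher in Hepa1-6 than in LN, 1 was lower and 4 did not pass, with a median log2 fold change of 0.84 beside 1.89 for the 13 cathepsins. In E.G7 against LN, 13 were higher, 2 lower and 6 did not pass. The order of the medians was the other way there, with 0.54 over the 20 pump genes with reads in either group (Atp6v0a4 had none) and 0.33 over the cathepsins. Between the tumours, 10 were higher in Hepa1-6, 1 was lower and 10 did not pass (median 0.25 with Atp6v0a4 and 1.42 over the cathepsins). The summed pump level was 2394 to 2530 CPM in Hepa1-6, 1837 and 1855 in E.G7, and 1335 to 1465 CPM in LN. The 16 and the 10 include Atp6v0a4. The backgrounds are those given with the counts over all members.

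In the V1 sector, Atp6v1a encodes the catalytic A subunit. It had 160.3, 156, 153 and 139 CPM in Hepa1-6, 90.7 and 83.02 in E.G7 and 47.6, 49.5, 50.6 and 43.3 in LN. The groups did not overlap, with log2 fold change 1.67 ± 0.067 (SE), adjusted p = 2.76e-12 in Hepa1-6 and log2 fold change 0.86 ± 0.079 (SE), adjusted p = 1.3e-07 in E.G7, both against LN. Its partner in the ATP-splitting ring, Atp6v1b2 for subunit B, had 257, 254, 263 and 268 CPM in Hepa1-6, 111 and 99.2 in E.G7 and 108, 118, 117 and 121 in LN. All Hepa1-6 libraries stood above the rest (log2 fold change 1.17 ± 0.054 (SE), adjusted p = 1.57e-11 against LN), whereas E.G7 and LN libraries overlapped (log2 fold change -0.14 ± 0.066 (SE), adjusted p = 0.0789). That last difference was called lower under upper-quartile scaling (-0.26, adjusted p = 0.00377) and higher after scaling to pan T cell genes (0.20, adjusted p = 0.0159), so its direction depends on the scaling. It was also called lower without E.G7 replicate 1 or LN replicate 1 (-0.22 and -0.18, adjusted p = 0.0356 and 0.0366). Atp6v1e1, for a subunit of the peripheral stalk, averaged 174 ± 11.8 CPM in Hepa1-6 (SD, n = 4), 109 ± 0.0706 in E.G7 (SD, n = 2) and 78.8 ± 2.404 in LN (SD, n = 4) and was called higher in both tumours (1.14 and 0.47, adjusted p = 4.42e-11 and 2.37e-05).

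Atp6v1c1, Atp6v1f, Atp6v1g1 and Atp6v1h, for further V1 subunits, rose by 0.49 to 0.73 log2 units in Hepa1-6 and 0.48 to 0.62 in E.G7 against LN, and none of the 4 passed between the tumours (-0.10 to 0.11, adjusted p of 0.341 to 0.518). Atp6v1d, for a subunit of the central rotor, averaged 96.04 ± 6.93 CPM in Hepa1-6 (SD, n = 4), 96.02 ± 1.93 in E.G7 (SD, n = 2) and 120.0 ± 6.92 in LN (SD, n = 4). It was lower in both tumours than in LN, with log2 fold changes of -0.32 in Hepa1-6 and -0.32 in E.G7 (adjusted p = 0.000329 and 0.00232), which after scaling to pan T cell genes became 0.029 and 0.024 (adjusted p = 0.699 and 0.818). Among the isoforms of subunit G, Atp6v1g2, known from neurons, was low and did not pass in any comparison, with 4.92 ± 1.096 CPM in Hepa1-6 (SD, n = 4), 4.14 ± 0.129 in E.G7 (SD, n = 2) and 5.29 ± 1.18 in LN (SD, n = 4). Atp6v1g3, known from kidney, had 0.122, 0.331, 0.124 and 0.578 CPM in Hepa1-6, 1.71 and 1.77 in E.G7 and 0.277, 0.733, 0.603 and 0.272 in LN. Both E.G7 libraries were above all others (log2 fold change 1.87 ± 0.54 (SE), adjusted p = 0.00701 against LN, and log2 fold change -2.57 ± 0.56 (SE), adjusted p = 0.00128 for Hepa1-6 against E.G7). Atp6v1b1, Atp6v1c2 and Atp6v1e2, isoforms of subunits B, C and E, had at most 4, 9 and 4 reads in any library and were not tested, nor was Atp6v0c-ps1 with at most 5.

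In the V0 sector, subunit a, which steers the pump to different membranes, has several genes. Atp6v0a1 had 54.1, 62.9, 58.7 and 53.1 CPM in Hepa1-6, 12.6 and 11.5 in E.G7 and 14.1, 16.5, 18.6 and 17.2 in LN. It was higher in Hepa1-6 than in LN (log2 fold change 1.79 ± 0.097 (SE), adjusted p = 1.2e-10) and lower in E.G7 than in LN (log2 fold change -0.46 ± 0.12 (SE), adjusted p = 0.00468), and the second call did not hold after scaling to pan T cell genes (-0.12, adjusted p = 0.451) or without E.G7 replicate 2 (-0.39, adjusted p = 0.0665). Atp6v0a2, found on Golgi and endosomes, did not pass in any comparison, with 139, 149, 153 and 113 CPM in Hepa1-6, 136 and 117 in E.G7 and 122, 125, 138 and 127 in LN. Its log2 fold changes were 0.12 ± 0.085 and -0.016 ± 0.10 (SE) against LN (adjusted p = 0.24 and 0.915). Without Hepa1-6 replicate 4, its lowest Hepa1-6 library, the difference of Hepa1-6 passed against LN (0.20, adjusted p = 0.0132) and against E.G7 (0.22, adjusted p = 0.0343). After scaling to pan T cell genes, Atp6v0a2 was called higher against LN in Hepa1-6 (0.46, adjusted p = 0.000361) and in E.G7 (0.33, adjusted p = 0.0185). Tcirg1, the gene for the a3 form used by osteoclasts and lysosomes, lies outside the symbol rule and averaged 246 CPM in Hepa1-6, 144 in E.G7 and 103 in LN. All 3 of its comparisons passed (1.26, 0.48 and 0.77 for Hepa1-6 against LN, E.G7 against LN and Hepa1-6 against E.G7, adjusted p = 1.9e-11, 2.16e-05 and 3.29e-07). By CPM, Atp6v0a2 was above Tcirg1 in LN (128 and 103), so the shares per kb depend on the deposited lengths. Per kb, Tcirg1 made up 64.5% of subunit a in Hepa1-6, 60.2% in E.G7 and 50.9% in LN. Atp6v0a2 made up 24.8% in Hepa1-6, 36.2% in E.G7 and 43.4% in LN, and Atp6v0a1 10.5% in Hepa1-6, 3.55% in E.G7 and 5.76% in LN. Atp6v0a4, known from kidney, had 3, 10, 9 and 27 reads in the Hepa1-6 libraries and 0 in every E.G7 and LN library. It passed the read filter through Hepa1-6 alone, so a call could only be higher there. Against a floor of 3 reads over a group, it was at least 17.1-fold higher in Hepa1-6 than in LN and at least 9.11-fold higher than in E.G7. Its call against E.G7 was lost without either E.G7 library (adjusted p = 0.0619 and 0.0648), and its exons overlap Tmem213 and D630045J12Rik.

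Subunit d also has a pair of genes. Atp6v0d1, expressed in most cells, had 115, 117, 112 and 104 CPM in Hepa1-6, 78.99 and 87.8 in E.G7 and 39.3, 49.7, 47.4 and 44.7 in LN. Its groups did not overlap, and all 3 comparisons passed (1.31, 0.88 and 0.43, adjusted p = 2.56e-10, 3.99e-07 and 0.00111). Atp6v0d2, known from osteoclasts and macrophages, had 13.6, 13.9, 16.9 and 16.01 CPM in Hepa1-6, 2.12 and 2.98 in E.G7 and 1.62, 2.47, 1.33 and 1.83 in LN. Its rise in Hepa1-6 was 8.32-fold (log2 fold change 3.06 ± 0.19 (SE), adjusted p = 8.09e-10), whereas E.G7 and LN overlapped (log2 fold change 0.49 ± 0.25 (SE), adjusted p = 0.0967). The latter difference passed without LN replicate 2 (0.67, adjusted p = 0.023) and after scaling to pan T cell genes (0.84, adjusted p = 0.00614). Atp6v0d2 supplied 8.19% ± 1.08 of the subunit d level per kb in Hepa1-6 (SD, n = 4), 1.97% ± 0.32 in E.G7 (SD, n = 2) and 2.57% ± 0.56 in LN (SD, n = 4). Summed macrophage markers were 4051 to 4358 CPM in Hepa1-6, 736.5 and 763 in E.G7, and 21.6 to 34.6 CPM in LN. The part of macrophage RNA in the levels of Atp6v0d2 was not tested.

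Atp6v0b and Atp6v0c encode the proton-carrying ring. Atp6v0b had 82.3, 77.5, 86.8 and 77.8 CPM in Hepa1-6, 74.8 and 87.8 in E.G7 and 28.9, 28.9, 23.7 and 27.2 in LN. This was 2.98-fold the LN level in Hepa1-6 and 2.99-fold in E.G7 (log2 fold change 1.58 ± 0.080 (SE), adjusted p = 5.21e-11 and log2 fold change 1.58 ± 0.093 (SE), adjusted p = 6.3e-10). The tumours overlapped, with a difference of -0.0035 ± 0.094 (SE, adjusted p = 0.981). The summed macrophage markers were 5.59 times as high in Hepa1-6 as in E.G7, and the part of macrophage RNA in Atp6v0b was not tested. Exons of Atp6v0b overlap Gm12841 on the other strand, as those of Atp6v0a2, Atp6v1e1, Atp6v1g2 and Atp6v1h do 4930404A12Rik, Slc25a18, Nfkbil1 and Rgs20. Atp6v0c averaged 185 ± 7.52 CPM in Hepa1-6 (SD, n = 4), 107 ± 9.47 in E.G7 (SD, n = 2) and 63.2 ± 4.33 in LN (SD, n = 4) and passed in all 3 comparisons (1.55, 0.76 and 0.79). So did its near-identical pseudogene Atp6v0c-ps2 (1.88, 0.99 and 0.89), which averaged 5.999 CPM in Hepa1-6, 3.24 in E.G7 and 1.63 in LN and whose reads may be those of Atp6v0c. Atp6v0e averaged 182 CPM in Hepa1-6, 168 in E.G7 and 134 in LN and rose by 0.45 log2 units in Hepa1-6 and 0.33 in E.G7 against LN (adjusted p = 8.91e-06 and 0.00129). The rare form Atp6v0e2, at most 0.736 CPM, did not pass. The accessory genes Atp6ap1, which helps assemble the pump, and Atp6ap2, the prorenin receptor, averaged 278 CPM in Hepa1-6, 179 in E.G7 and 155 in LN, and 193 CPM in Hepa1-6, 162 in E.G7 and 99.6 in LN. Both were called in all 3 comparisons, with log2 fold changes of 0.84 and 0.95 in Hepa1-6 against LN, 0.20 and 0.70 in E.G7 against LN, and 0.64 and 0.25 between the tumours. The E.G7 value of Atp6ap1 did not pass with upper-quartile scaling (0.086, adjusted p = 0.239), nor the last value, for Atp6ap2, without E.G7 replicate 2 (0.20, adjusted p = 0.0926). Atp6v1fnb had 0.204 to 0.505 CPM in all libraries and did not pass.

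**Figure D3:**
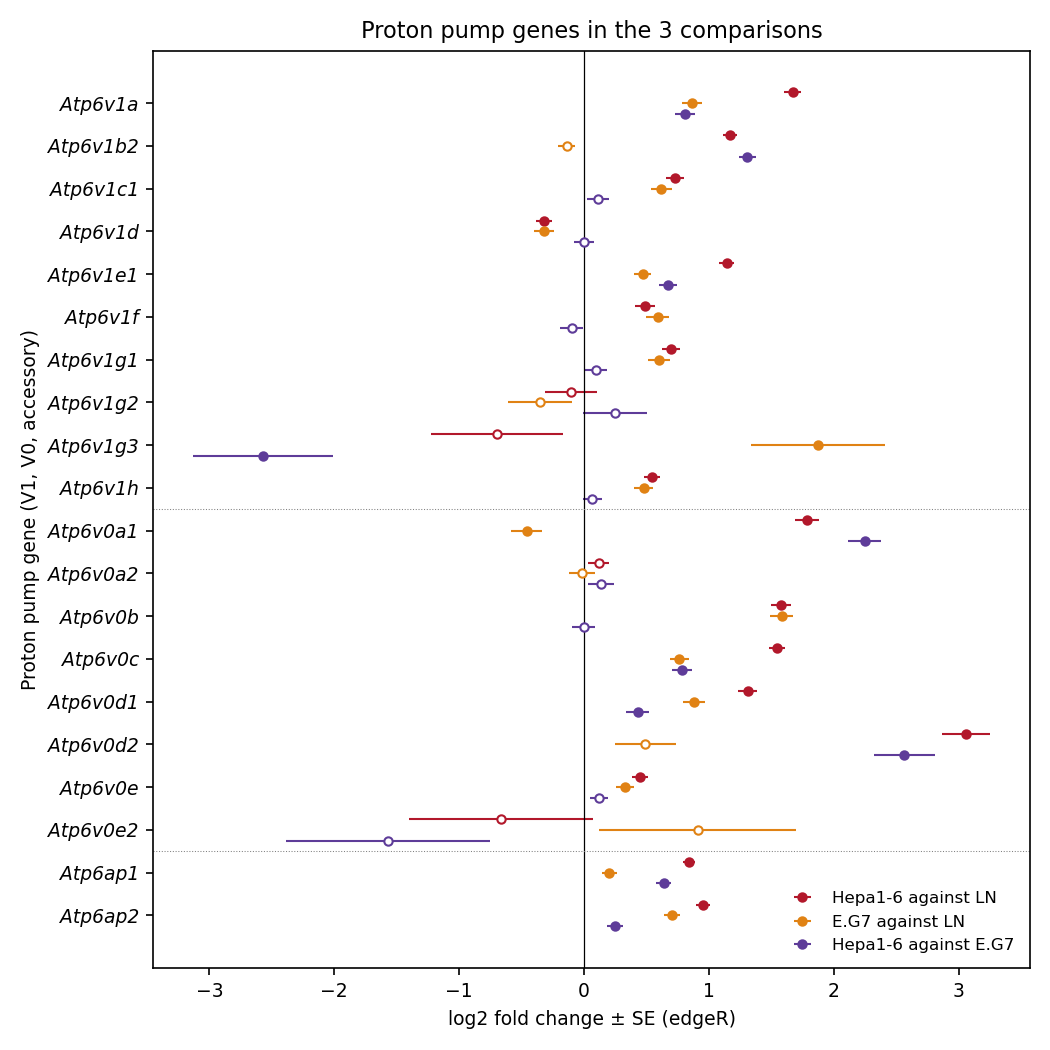
Log2 fold change with SE from edgeR for 20 tested proton pump genes in Hepa1-6 against LN, E.G7 against LN and Hepa1-6 against E.G7, with V1, V0 and accessory genes separated by dotted lines, filled points for adjusted p under 0.05 and open points otherwise (Atp6v0a4, with 0 reads in E.G7 and LN, is left out). Atp6v0a1, Atp6v0d2 and Atp6v1b2 have called rises in Hepa1-6 beside E.G7 values that are lower or did not pass, while Atp6v0b has equal values of 1.58 in both tumours.

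The membrane glycoproteins were higher in both tumours. Lamp1 had 400.2, 377, 322 and 248 CPM in Hepa1-6, 152 and 175 in E.G7 and 124, 116, 67.5 and 75.05 in LN. The 3 groups did not overlap, but the libraries of a group were spread, with an SD of 20.1% of the mean in Hepa1-6 and of 29.9% in LN. It was 3.52-fold higher in Hepa1-6 than in LN (log2 fold change 1.81 ± 0.24 (SE), adjusted p = 0.000208). The differences of E.G7 against LN (log2 fold change 0.77 ± 0.28 (SE), adjusted p = 0.0451) and of Hepa1-6 against E.G7 (log2 fold change 1.04 ± 0.30 (SE), adjusted p = 0.0225) lay near the threshold, and both were lost without either E.G7 library (0.88 and 0.67 for E.G7 against LN, adjusted p = 0.0999 and 0.201, and 0.94 and 1.14 for Hepa1-6 against E.G7, adjusted p = 0.142 and 0.0884). The difference of E.G7 against LN was also lost without LN replicate 3 or 4 (0.63 and 0.67, adjusted p = 0.0799 and 0.0928). Exons of Lamp1 overlap Grtp1 on the other strand. Lamp2, which also takes part in chaperone-mediated autophagy, had 248, 274, 272 and 299 CPM in Hepa1-6, 116 and 117 in E.G7 and 59.6, 53.6, 62.4 and 50.4 in LN. Its groups were well apart, with log2 fold change 2.27 ± 0.074 (SE), adjusted p = 1.84e-13 in Hepa1-6 and log2 fold change 1.04 ± 0.085 (SE), adjusted p = 3.23e-08 in E.G7 against LN, and log2 fold change 1.23 ± 0.091 (SE), adjusted p = 1.78e-08 between the tumours.

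Of the MiT/TFE factors, all 3 were higher in Hepa1-6 than in LN and than in E.G7. Tfeb alone passed in E.G7 against LN. Tfeb had 21.2, 18.4, 22.6 and 18.7 CPM in Hepa1-6, 13.3 and 13.2 in E.G7 and 9.53, 9.29, 8.52 and 8.55 in LN. Its libraries fell into the order Hepa1-6, E.G7, LN without overlap (log2 fold change 1.17 ± 0.11 (SE), adjusted p = 1.1e-07 in Hepa1-6 and log2 fold change 0.57 ± 0.13 (SE), adjusted p = 0.00166 in E.G7, against LN). Tfe3 had 114, 112, 109 and 108 CPM in Hepa1-6, 66.7 and 61.4 in E.G7 and 57.2, 63.8, 69.1 and 69.1 in LN. It was 1.71-fold higher in Hepa1-6 than in LN (log2 fold change 0.77 ± 0.067 (SE), adjusted p = 3.92e-08). E.G7 and LN overlapped for Tfe3 (log2 fold change -0.018 ± 0.082 (SE), adjusted p = 0.879), a difference that became 0.33 (adjusted p = 0.00347) after scaling to pan T cell genes. Mitf, known for its role in pigment cells and osteoclasts, had 10.3, 11.5, 10.7 and 12.7 CPM in Hepa1-6, 1.75 and 1.55 in E.G7 and 1.38, 1.58, 2.13 and 2.25 in LN. The Hepa1-6 level was 6.14-fold that of LN (log2 fold change 2.62 ± 0.18 (SE), adjusted p = 2.8e-09) and 6.85-fold that of E.G7 (log2 fold change 2.77 ± 0.24 (SE), adjusted p = 1.29e-07), while E.G7 and LN overlapped (log2 fold change -0.16 ± 0.24 (SE), adjusted p = 0.603). Divided by length, Tfe3 was the most abundant of the family, at 11.97, 6.91 and 6.996 CPM per kb in Hepa1-6, E.G7 and LN, followed by Tfeb at 3.57, 2.35 and 1.58 CPM per kb and Mitf at 1.82, 0.266 and 0.296 CPM per kb.

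**Figure D4:**
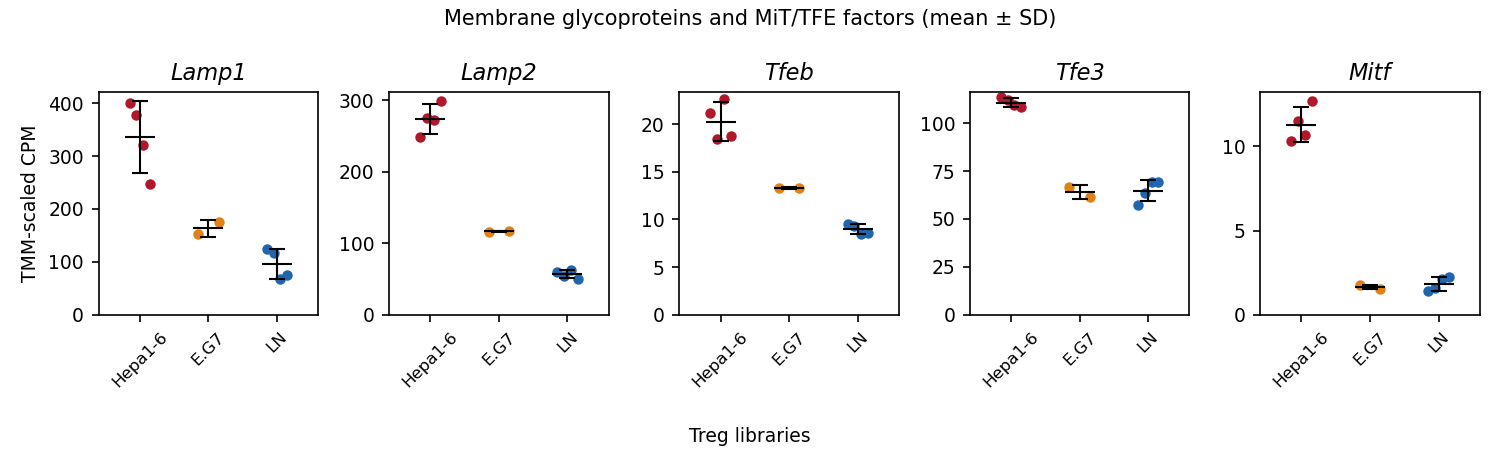
Level in TMM-scaled CPM of Lamp1, Lamp2, Tfeb, Tfe3 and Mitf, with 1 point per library and bars for the mean and SD of Hepa1-6 (n = 4), E.G7 (n = 2) and LN (n = 4); each panel has its own linear axis from 0. Mitf and Tfe3 are highest in Hepa1-6, with 11.3 and 111 CPM on average, and overlap between E.G7 and LN, while Lamp2 and Tfeb are stepped from Hepa1-6 through E.G7 to LN.

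Hepa1-6 and E.G7 libraries were compared directly because both are tumour Treg cells and because the macrophage markers separate them. The 16 macrophage markers were 3.06-fold to 21.2-fold higher in Hepa1-6 than in E.G7, with a median of 10.9-fold. Summed over genes, the markers were 5.59 times as high in Hepa1-6 as in E.G7, the cathepsins 2.66 times and the pump 1.33 times. Leaving out Atp6v0a4, none of 40 members reached the macrophage median, and 8 lay above the lowest macrophage marker (log2 1.61). The cathepsins spread from -1.05 (Ctse) to 2.88 (Ctsh) with a median of 1.42, and the pump, without Atp6v0a4, from -2.57 (Atp6v1g3) to 2.56 (Atp6v0d2) with a median of 0.19. The pan T cell genes had a median of -0.029. Ctsh (2.88 ± 0.16, SE), Mitf (2.77 ± 0.24), Atp6v0d2 (2.56 ± 0.24), Ctsl (2.39 ± 0.094), Ctsc (2.35 ± 0.071) and Atp6v0a1 (2.25 ± 0.13) had the highest values. The part of macrophage RNA in these differences was not tested.

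**Figure D5:**
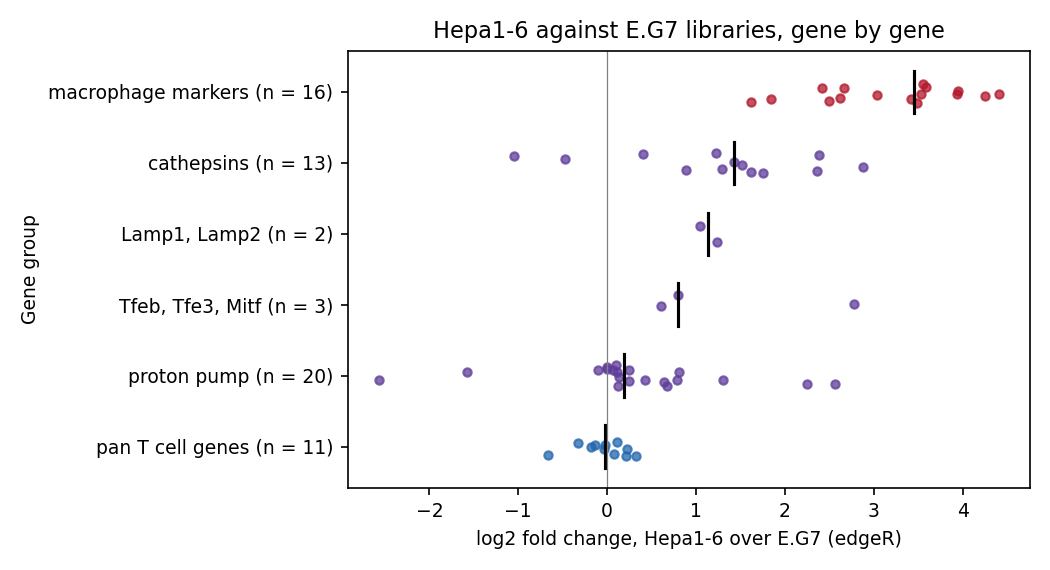
Log2 fold change of Hepa1-6 over E.G7 from edgeR, with 1 point per gene and a black bar at the median, for macrophage markers, member groups and pan T cell genes (the pump without Atp6v0a4). The macrophage markers lie between 1.61 and 4.41, the cathepsins between -1.05 and 2.88, and the pump has its median at 0.19.

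Other lysosomal genes were measured from lists of known function, none of which holds a member. Their counts are read against the shares of all tested genes, which were 37.0% higher and 31.1% lower in Hepa1-6 against LN, 32.7% and 27.2% in E.G7 against LN, and 26.1% and 19.6% in Hepa1-6 against E.G7. Of 40 tested hydrolases and their activators, 33 were higher and 3 lower in Hepa1-6 than in LN. In E.G7 against LN 18 were higher and 10 lower, and in Hepa1-6 against E.G7 35 were higher and 1 lower (median log2 fold changes 0.81, 0.19 and 0.68). Lgmn, the asparaginyl protease that processes cathepsins, averaged 417 CPM in Hepa1-6, 57.6 in E.G7 and 21.6 in LN. Grn, the progranulin gene, averaged 577 CPM in Hepa1-6, 252 in E.G7 and 43.1 in LN, and Psap, which encodes the sphingolipid activator precursor, averaged 743 CPM in Hepa1-6, 182 in E.G7 and 140.1 in LN. All 3 passed in every comparison, with log2 fold changes in Hepa1-6 against LN of 4.27, 3.74 and 2.41 (adjusted p = 1.49e-17, 8.67e-17 and 1.81e-16). Of 24 lysosomal membrane proteins and transporters, 16 were higher and 5 lower in Hepa1-6 than in LN. In E.G7 against LN 10 were higher and 9 lower, and 14 were higher and 1 lower in Hepa1-6 than in E.G7 (medians 0.37, -0.079 and 0.44). In E.G7 against LN that is 41.7% higher and 37.5% lower, both somewhat above the shares of all genes. The tetraspanin gene Cd63 averaged 166 CPM in Hepa1-6, 8.63 in E.G7 and 0.587 in LN, the metal transporter gene Slc11a1 averaged 130.4 CPM in Hepa1-6, 11.7 in E.G7 and 0.264 in LN and Gpnmb averaged 50.2 CPM in Hepa1-6, 23.7 in E.G7 and 1.68 in LN, all 3 called in every comparison.

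Of 10 pump partners outside the symbol rule, such as assembly factors, 6 were higher and 1 lower in Hepa1-6 than in LN, 7 higher and 1 lower in E.G7 than in LN, and 2 higher and 2 lower in Hepa1-6 than in E.G7 (medians 0.30, 0.46 and -0.17). Beside Tcirg1, the smallest adjusted p in Hepa1-6 against LN belonged to Dmxl2, for a regulator of pump assembly (9.87 CPM in Hepa1-6, 1.702 in E.G7 and 0.0803 in LN), and to Tmem9 (31.5 CPM in Hepa1-6, 38.1 in E.G7 and 15.8 in LN). Of 16 genes of the Ragulator, the Rag GTPases and the control of TFEB by nutrient signals, 9 were higher and 4 lower in Hepa1-6 than in LN, 6 higher and 3 lower in E.G7 than in LN, and 5 higher and 1 lower in Hepa1-6 than in E.G7 (medians 0.33, 0.19 and 0.21). The shares higher in E.G7 against LN (37.5%) and in Hepa1-6 against E.G7 (31.2%) were near those of all genes. Fnip2, a partner of folliculin, averaged 23.6 CPM in Hepa1-6, 5.93 in E.G7 and 1.396 in LN and its relative Fnip1 54.4 CPM in Hepa1-6, 44.9 in E.G7 and 34.3 in LN. Tfec, the MiT/TFE relative known from macrophages, averaged 13.4 CPM in Hepa1-6, 0.167 in E.G7 and 0.0494 in LN, with log2 fold change 7.96 ± 0.50 (SE), adjusted p = 2.46e-09 in Hepa1-6 against LN and log2 fold change 1.67 ± 1.06 (SE), adjusted p = 0.192 in E.G7 against LN.

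Of the cathepsin inhibitors, 5 of 9 were tested and all 5 were higher in Hepa1-6 than in LN, 4 in E.G7 than in LN and 4 in Hepa1-6 than in E.G7 (medians 2.50, 1.49 and 1.01). Serpina3g, an intracellular serpin that inhibits cathepsins, averaged 371 CPM in Hepa1-6, 181 in E.G7 and 48.9 in LN, the cystatin C gene Cst3 averaged 475 CPM in Hepa1-6, 176 in E.G7 and 64.7 in LN and the cystatin B gene Cstb averaged 137 CPM in Hepa1-6, 67.95 in E.G7 and 24.2 in LN. All of these were called in each comparison. Among 17 genes that sort enzymes to the lysosome, 7 were higher and 4 lower in Hepa1-6 than in LN, 6 higher and 8 lower in E.G7 than in LN, and 7 higher and 1 lower in Hepa1-6 than in E.G7 (medians 0.14, -0.18 and 0.18). The shares higher against LN, 41.2% in Hepa1-6 and 35.3% in E.G7, were near those of all genes. Other shares of this list were further off. In E.G7 against LN 47.1% were lower, against 27.2% of all genes. In Hepa1-6 against E.G7 41.2% were higher, against 26.1% of all genes. The mannose 6-phosphate receptors moved in opposite directions. M6pr averaged 625 CPM in Hepa1-6, 626 in E.G7 and 276 in LN (log2 fold change 1.18 ± 0.046 (SE), adjusted p = 1.93e-12 in Hepa1-6 and log2 fold change 1.18 ± 0.054 (SE), adjusted p = 3.23e-11 in E.G7, against LN), whereas Igf2r averaged 88.3 CPM in Hepa1-6, 147 in E.G7 and 263 in LN (log2 fold change -1.57 ± 0.057 (SE), adjusted p = 6.91e-13 and log2 fold change -0.84 ± 0.070 (SE), adjusted p = 4.25e-08 in the same comparisons). Sort1, for the sorting receptor sortilin, averaged 10.7 CPM in Hepa1-6, 5.39 in E.G7 and 0.0579 in LN and was called in each comparison. Of 16 autophagy genes, 11 were higher and 1 lower in Hepa1-6 than in LN, 7 higher and 1 lower in E.G7 than in LN, and 9 higher and 2 lower in Hepa1-6 than in E.G7 (medians 0.70, 0.12 and 0.27). Gabarapl1, Sqstm1 and Map1lc3a, which act in autophagosome formation and cargo capture, averaged 104 CPM in Hepa1-6, 28.4 in E.G7 and 16.4 in LN, 1122 CPM in Hepa1-6, 741 in E.G7 and 372 in LN, and 26.1 CPM in Hepa1-6, 19.2 in E.G7 and 5.45 in LN, and all 3 were called in every comparison.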

How the data were processed

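Transcripts were measured by RNA sequencing of total RNA extracted with TRIzol, with libraries made by BGI Genomics and read on a BGISEQ-500, per the labels' protocols. The deposited table holds the authors' whole-number read counts per gene with exon coordinates and lengths, in the featureCounts layout per the file headers. The submitters' processing notes name HISAT2, featureCounts, Subread, RSEM and DESeq2 and the mm10 build, while versions and the strand setting are not given in the sources used here. The authors' deposited FPKM tables were used only as an alternative and list 37 of the 50 genes.

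Counts were fitted in R 4.3.3 with edgeR 4.0.16 (filterByExpr, TMM scaling, a robust quasi-likelihood fit of group means to 10 libraries, biological coefficient of variation 13%), and p-values were adjusted over 20068 genes. Standard errors (SE) were recovered from each log2 fold change and its F value. Levels per kb use the deposited gene lengths, which may differ from those of the transcripts present. Every pair of libraries within a group differed by more than sampling noise (chi-square per degree of freedom of 7.41 to 18.9). Floors cover counting error only. Genes, lists and tests were chosen with earlier results of these data known. Named with values were every cathepsin, the pump genes with isoforms, Lamp1, Lamp2 and the MiT/TFE factors, with the 3 genes of smallest adjusted p of each pathway list. Other pump genes were named to account for all members. Alternatives were other scalings, filters, limma 3.58.1, DESeq2 1.42.0, a replicate block, a minimum fold of 1.5 in the test, log2 FPKM, and leaving out each library.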

Additional observations from a re-analysis of the deposited data

Results flagged for a closer look

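Ctss, Ctsw, Ctsf and Atp6v0a1 moved in opposite directions in the tumours, with called rises in Hepa1-6 and called falls in E.G7 against the same LN libraries. They were flagged by these opposite calls together with a call in Hepa1-6 against E.G7, so that last comparison is no separate test of them. Its edgeR log2 fold changes were 1.62 for Ctss, 1.76 for Ctsw, 1.22 for Ctsf and 2.25 for Atp6v0a1. The adjusted p were 5.37e-11, 3.65e-12, 0.000683 and 1.04e-09. The levels of all 4 were higher in 4 of 4 Hepa1-6 libraries than in both E.G7 libraries. The opposite directions against LN did not hold in every setting. After scaling to pan T cell genes the E.G7 difference was 0.068 for Ctss (adjusted p = 0.353), -0.12 for Atp6v0a1 (adjusted p = 0.451) and -0.44 for Ctsf (adjusted p = 0.132). Without E.G7 replicate 2, that of Atp6v0a1 was -0.39 (adjusted p = 0.0665) and that of Ctsf -0.55 (adjusted p = 0.161). The rise of Ctsf in Hepa1-6 lay near the threshold (0.44, adjusted p = 0.0486) and did not pass when Hepa1-6 replicate 1, 2 or 3 or LN replicate 1, 3 or 4 was left out (0.36 to 0.48, adjusted p of 0.055 to 0.136).

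A single library stood apart from the rest of its group in 2 of 82 groups examined, where chance gives about 1 in 20. Ctso was lowest in LN replicate 3, at 88.6 CPM against 96.3 to 97.5 CPM in the other LN libraries. Atp6v1fnb was highest in LN replicate 4, at 0.505 CPM against 0.270 to 0.281 CPM in the others.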

How the results depend on the processing

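Of the called differences, 33 of 36 in Hepa1-6 against LN, 25 of 32 in E.G7 against LN and 26 of 29 in Hepa1-6 against E.G7 kept their call in every setting that tested the gene, leaving aside the test against a fold of 1.5. In that test too, 28, 16 and 20 kept it. A setting that did not test a gene was not counted against it. The filter of 10 CPM tested 33 members and log2(FPKM + 1) with its filter 35. With scaling to pan T cell genes, which moved the median of all genes by 0.347 in Hepa1-6 against LN and 0.342 in E.G7 against LN (upper-quartile scaling by -0.18 and -0.116), 1 member instead of 3 was lower in Hepa1-6 than in LN and 3 instead of 7 in E.G7 than in LN. Under it 6 differences turned: Atp6v1d in Hepa1-6 against LN became 0.029, and in E.G7 against LN Ctss became 0.068, Atp6v0a2 0.33, Atp6v1b2 0.20, Atp6v1d 0.024 and Tfe3 0.33. Over all settings, 12 differences changed sign where neither the main fit nor the setting called them. Atp6v0a2 and Tfe3 in E.G7 against LN are among these, because they also changed sign on leaving out single libraries. Under scaling to pan T cell genes both were called (adjusted p = 0.0185 and 0.00347). Against a fold of 1.5, 1 member was lower in Hepa1-6 than in LN, and in E.G7 against LN 13 were higher and 3 lower. With a filter of 10 CPM, log2(FPKM + 1) or log2(FPKM + 0.1), which test fewer members, 1 member was lower in Hepa1-6 than in E.G7.

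Without 1 library at a time, members higher numbered 31 to 33 in Hepa1-6 against LN, 23 to 25 in E.G7 against LN and 24 to 27 in Hepa1-6 against E.G7, and members lower 3, 5 to 8 and 2. Where E.G7 was left with 1 library, that library is assumed to vary like the other groups. Same-numbered Hepa1-6 and LN libraries did not deviate together (correlations of -0.0323 to 0.0287), and 1 of 4 Hepa1-6 libraries correlated best with the LN library of its number. With a replicate block the counts were 32 higher and 3 lower in Hepa1-6 against LN, where Ctsf was lost, 25 and 7 in E.G7 against LN, and 27 and 2 in Hepa1-6 against E.G7. Depth limits Ctsg, Atp6v0a4, Atp6v1b1, Atp6v1c2 and Atp6v1e2, whose reads number 27 or fewer in any library.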
